A study of Arabidopsis thaliana with 14 samples.

Results

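Gene expression in whole Arabidopsis seedlings was compared between 2 arrays of seedlings exposed for 12 h to 50 µM of 5929745 and 2 arrays of untreated seedlings of the same time, 4 of the 14 arrays of a study on an albino chemical. The groups were taken from the sample titles, and all probe sets other than the array's control probe sets entered, 15922 of 22746 after a filter on weak signals. All seedlings were wild-type Col-0, kept at 22 °C with days of 16 h and nights of 8 h, given 1 day in liquid 0.5x MS medium after growth on agar, and used on day 6 after germination. Besides the 5929745 and untreated arrays at 12 h, the text uses seedlings with 50 µM of 7606596 at 12 h, seedlings with 50 µM of 5929745 at 3 h, untreated seedlings at 3 h, and untreated seedlings at 0 h, each with 2 arrays. Seedlings with 50 µM of 7606596 at 3 h, also with 2 arrays, entered the fit over all 14 arrays. Their signals are shown in the plot of genes whose 5929745 effect differed between 3 h and 12 h. Both compounds are known here only by their code numbers, and the labels do not say whether untreated seedlings received a solvent. The design text names 2 independent sets of arrays, without saying which array belongs to which. How many seedlings each 12 h array stands for is not given in the sources used here, so p-values measure the spread between these arrays.

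Seedlings of this age are greening, growing tissue. Their chloroplasts carry a small genome of their own, which encodes core subunits of the photosystems, the cytochrome b6f complex, the ATP synthase and the NDH complex, and also part of the plastid ribosome and a bacterial-type RNA polymerase. The other subunits, the enzymes of chlorophyll synthesis and the assembly factors are encoded in the nucleus and imported. Cell growth in leaves and stems needs loosening of the cell wall, in which expansins and related wall proteins take part.

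Values are MAS5 signals on a linear scale. Changes are log2 differences of signal + 16 between 5929745 and untreated seedlings, given with the standard error of the limma fit. A probe set is called higher or lower at a Benjamini-Hochberg adjusted p under 0.05 over all 15922 probe sets. In whole seedlings, fewer cells of a type and less RNA per cell cannot be told apart. No signal is compared between different genes.

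The control signals of the arrays differed between the groups. Of 24 probe sets for the poly-A spikes dap, lys, phe and thr, bacterial transcripts mixed into a sample ahead of its labelling, 23 were lower on the 5929745 arrays with no overlap. Untreated signals were 1.04 to 15.3 times as high (median 3.15), and the lowest ratio belongs to LysX-M, with 18.9 and 22.4 against 30.6 and 12.3. The 12 of them whose names carry the prefix r2 averaged 4.80 and 4.95 (log2 signal) on the 5929745 arrays, against 6.71 and 6.66 on the untreated arrays of 12 h. On the 7606596 arrays of 12 h their mean was 4.94 and 5.25, and on the untreated arrays of 0 h 5.03 and 4.99, so those arrays share the lower level. The hybridization controls, added after labelling, stood at 11.07 and 11.11 with 5929745 against 10.77 and 10.82 in untreated seedlings. The 25S rRNA probe set had signals of 290 and 338 with 5929745 against 206 and 184 in untreated seedlings. Of the 2 actin 5′ probe sets 1 read 368 and 467 with 5929745 against 711 and 598 in untreated seedlings, and the other 5351 and 5538 against 5062 and 4376. The ratio of 5′ to 3′ signal, a sign of RNA quality, differed in direction between the controls. For the first of these actin probe sets it was 0.0745 and 0.0886 with 5929745 against 0.135 and 0.116 in untreated seedlings, lower with no overlap. For the second it was 0.526 and 0.520 against 0.559 and 0.504, with overlap. For ubiquitin it was 1.03 and 0.925 against 0.846 and 0.771 in 1 pair of probe sets, higher with no overlap, and 0.370 and 0.403 against 0.392 and 0.698 in the other. For GAPDH, with overlap in both pairs, it was 1.08 and 1.14 against 1.35 and 1.03, and 0.920 and 0.714 against 0.722 and 0.605. The part of these differences in the results below was not tested. The leaf marker RCA, Rubisco activase, the 1 of 6 leaf markers with a probe set, had 20750 and 21969 with 5929745 against 22202 and 19938 in untreated seedlings. Of 12 root markers 2 had a probe set, root hair expansins of weak signal. EXPA7 had 53.3 and 43.5 with 5929745 against 74.2 and 58.8 in untreated seedlings, and EXPA18 61.3 and 45.7 against 24.5 and 42.3, and their summed signals were 115 and 89.2 against 98.6 and 101. No probe set was assigned to a flower marker as a single gene in the annotation used.

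After 12 h with 5929745, 132 probe sets were higher (0.829% of those tested) and 91 lower (0.572%) than in untreated seedlings, 1.4% in all. Called changes were moderate: 19 of the higher and 11 of the lower probe sets passed 2-fold, and the median change of those called higher was 0.67 on the log2 scale and of those called lower -0.72. The median over all probe sets was -0.01. The arrays of the groups did not overlap for any called probe set, nor for 46.0% of all probe sets. Of the 223 called probe sets 119 name a single gene, 118 genes in all. They lie mostly in the nucleus, with 58 higher and 43 lower of 8550 genes measured, and 17 of them among the 69 plastid-encoded genes. None of the 13 mitochondrion-encoded genes was called by limma, and 4 of them had an unadjusted p under 0.05. Of all 15922 probe sets 2424 had an unadjusted p under 0.05, and such counts are to be read against that share. Leaving out an array leaves 1 in its group and makes that mean less precise, so calls can be lost even where the arrays agree. The number of calls changed with the array left out. Without replicate 1 of 5929745 it was 317, without replicate 2 of 5929745 109, without replicate 1 of the untreated seedlings 39 and without replicate 2 of them 72. Most of the 118 genes lost the call when at least 1 of the 4 arrays was left out, and none changed sign in any alternative. Of the alternatives only quantile scaling could have changed a sign. Leaving out an array or using another offset could not, as the arrays of called probe sets do not overlap. The other settings leave the size of the change as it is, so they could not either.

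**Figure D1:**
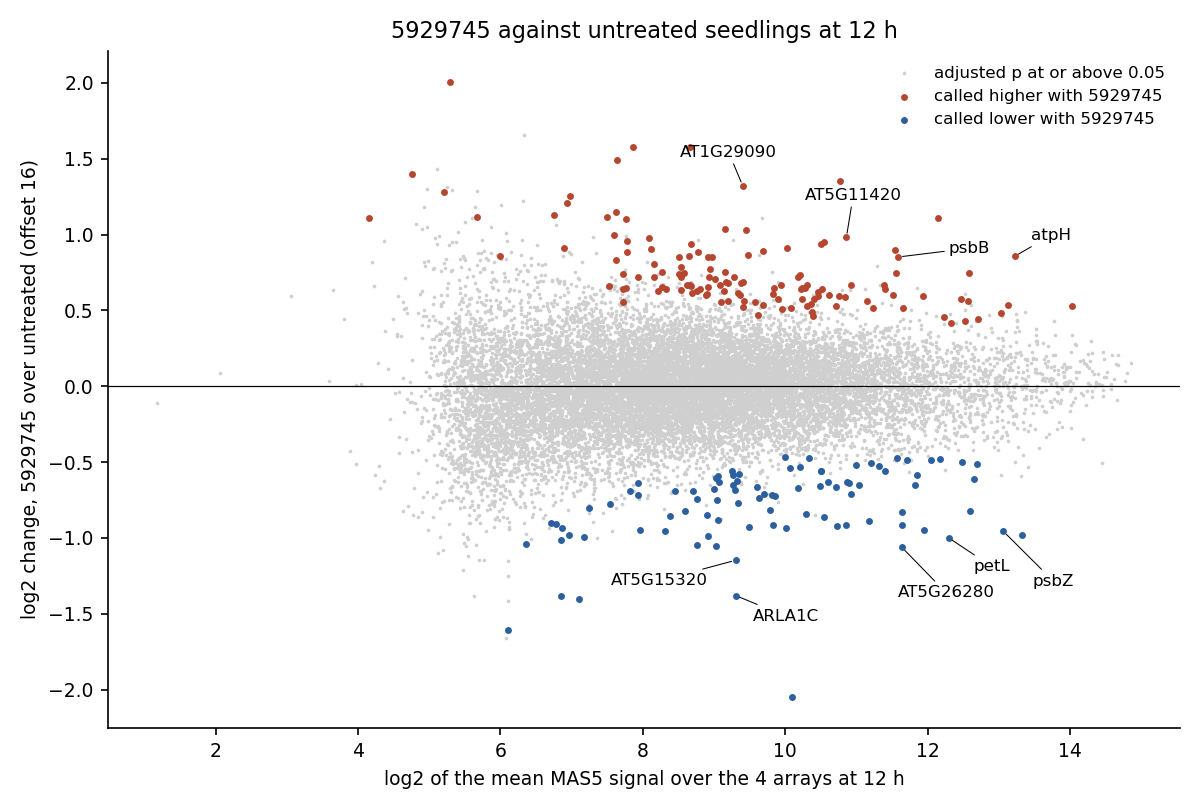
Each point is 1 of 15922 probe sets, by the log2 of its mean MAS5 signal over the 4 arrays at 12 h (x axis) and its log2 change with 5929745 over untreated seedlings (y axis), with an offset of 16. Called probe sets are coloured, 132 higher in red and 91 lower in blue, most of them between 0.4 and 1.4 in size, and 9 named genes are marked.

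The largest rise among genes of at least median signal was that of AT1G29090, a papain-type cysteine protease. It had signals of 1016 and 933 with 5929745 and 385 and 376 in untreated seedlings, a change of 1.32 ± 0.19 (limma, adjusted p = 0.00107). Both treated arrays lay far above both untreated ones, and the 0 h mean of 481 lay between. AT5G11420, a cell wall protein of the DUF642 family, had signals of 2342 and 2606 with 5929745 and 1248 and 1239 in untreated seedlings, a change of 0.98 ± 0.12 (adjusted p = 0.000866). AT5G62280, a protein of unknown function, had 383 and 348 against 176 and 179, a change of 0.98 ± 0.13 (adjusted p = 0.000887). AT5G25560 had 1004 and 1145 against 543 and 602, a change of 0.89 ± 0.12 (adjusted p = 0.00101). These 4 calls held without any of the arrays, with a highest adjusted p of 0.0302.

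Another 5 nuclear genes complete the largest rises. EXO (EXORDIUM), a brassinosteroid-responsive promoter of leaf growth, had signals of 3222 and 4636 with 5929745 and 2117 and 2016 in untreated seedlings, a change of 0.90 ± 0.17 (limma, adjusted p = 0.00958). The treated arrays lay apart from each other but above the untreated ones. AT5G08390, a regulatory subunit of the microtubule-severing enzyme katanin, had 444 and 601 against 284 and 273 (0.86 ± 0.15, adjusted p = 0.00825). BZIP61, a basic leucine zipper transcription factor, had 703 and 605 against 344 and 365 (0.85 ± 0.17, adjusted p = 0.0152). AT1G21060 had 318 and 421 against 184 and 192 (0.91 ± 0.17, adjusted p = 0.0106). AT2G36220 had 719 and 1149 against 469 and 516 (0.87 ± 0.19, adjusted p = 0.0323), and its second treated array decided much of that mean. These 5 calls ended without untreated replicate 1 and without untreated replicate 2. They also ended without 5929745 replicate 2, or for BZIP61 without 5929745 replicate 1, with adjusted p of up to 0.281 for AT2G36220 and up to 0.111 to 0.168 for the other 4.

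Some called genes of weaker signal or smaller change belong to fixed lists or to the same families and are named here after their values were seen. EXLB1, an expansin-like gene, had 191 and 177 with 5929745 against 56.8 and 80.4 in untreated seedlings (1.25 ± 0.22, limma, adjusted p = 0.00673), and was not called without untreated replicate 1 (adjusted p = 0.123). EXPA8, an expansin, had 145 and 175 against 70.7 and 84.7 (0.91 ± 0.18, adjusted p = 0.0162). It was the only 1 of 7 measured expansins and xyloglucan endotransglucosylases that was called, and the median of the 7 was -0.05. WES1, an enzyme that conjugates auxin with amino acids, had 1150 and 1281 against 779 and 737 (0.67 ± 0.12, adjusted p = 0.00752). It was the only 1 of 5 measured early auxin genes that was called. MCCA, a subunit of the leucine-degrading methylcrotonyl-CoA carboxylase, had 4206 and 5294 against 3193 and 3055 (0.59 ± 0.12, adjusted p = 0.0157), the only 1 called of 3 measured dark and sugar starvation genes. EXPA8, WES1 and MCCA were called without 5929745 replicate 1 but not without any of the other 3 arrays, with adjusted p of up to 0.201, 0.0776 and 0.150. SRC2, a C2-domain protein, had 3530 and 4035 against 2248 and 2248 (0.74 ± 0.11, adjusted p = 0.00186) and was called in every alternative.

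The largest fall among genes of at least median signal was that of ARLA1C, a small GTPase of the ADP-ribosylation factor-like family. Its signals were 298 and 391 with 5929745 and 1044 and 800 in untreated seedlings, a change of -1.38 ± 0.26 (limma, adjusted p = 0.0122). AT5G26280, a protein with TRAF-like domains, had the smallest p of the comparison, with 2195 and 1927 against 4521 and 4112 (-1.06 ± 0.11, adjusted p = 0.000278). AT3G44970, a cytochrome P450, had 251 and 305 against 588 and 589 (-1.05 ± 0.15, adjusted p = 0.00106). The treated arrays of all 3 genes lay below the untreated ones by wide margins. AT5G15320 had 392 and 381 against 925 and 830 (-1.15 ± 0.23, adjusted p = 0.0190). AT2G44820 had 357 and 311 against 749 and 672 (-1.05 ± 0.17, adjusted p = 0.00504). AT2G21530, a forkhead-associated domain protein, had 687 and 707 against 1187 and 1530 (-0.94 ± 0.17, adjusted p = 0.00825). The calls of AT5G26280 and AT3G44970 held without any array. ARLA1C was not called without 5929745 replicate 1 or untreated replicate 1 (adjusted p of up to 0.195), AT5G15320 not without 5929745 replicate 2 or either untreated array (up to 0.200), AT2G44820 not without untreated replicate 1 (0.0884) and AT2G21530 not without untreated replicate 2 (0.109).

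The other nuclear genes among the largest falls were CCB3, CRR41 and AT4G39200. CCB3, which helps to attach heme to the cytochrome b6f complex, had signals of 355 and 284 with 5929745 and 707 and 587 in untreated seedlings (-0.99 ± 0.18, limma, adjusted p = 0.0102). CRR41, an assembly factor of the chloroplast NDH complex, had 210 and 211 against 393 and 454 (-0.95 ± 0.15, adjusted p = 0.00343). NdhL, a nuclear-encoded subunit of that complex named after its values were seen, had 2268 and 1923 against 2815 and 3216 (-0.52 ± 0.12, adjusted p = 0.0323). AT4G39200, a protein of the small cytosolic ribosomal subunit (S25), had 5348 and 8687 against 13765 and 13183 (-0.98 ± 0.18, adjusted p = 0.00921). CCB3 was not called without 5929745 replicate 2 or untreated replicate 1 (adjusted p of up to 0.178), and CRR41 not without untreated replicate 2 (0.0598). NdhL was called only without 5929745 replicate 1 among the leave-one-out fits, and AT4G39200 only without 5929745 replicate 2, with adjusted p of up to 0.236 and 0.116 in the others.

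**Figure D2:**
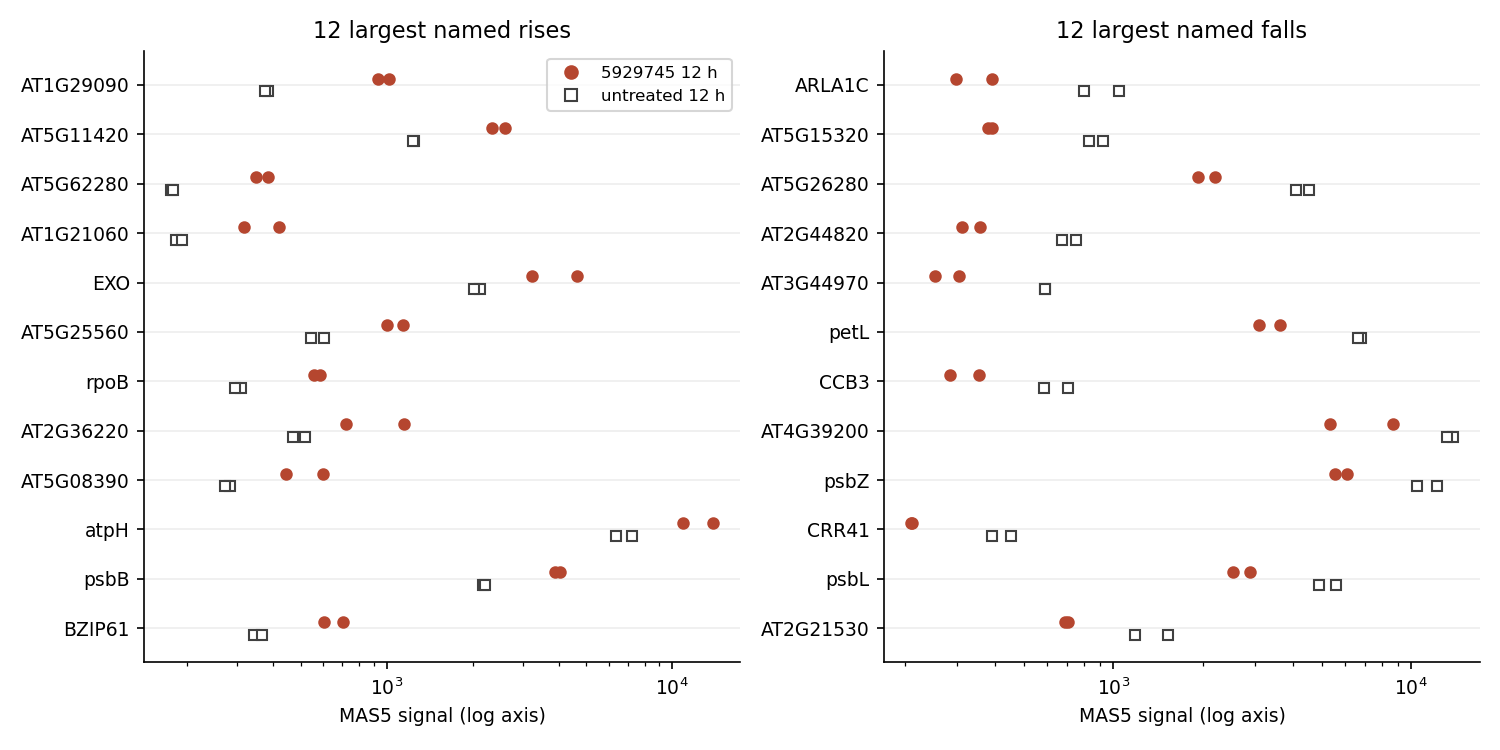
MAS5 signals (log axis) of the 12 largest rises on the left and the 12 largest falls on the right, chosen among called single genes of at least median signal. Red circles are the 2 arrays with 5929745 and open squares the 2 untreated arrays at 12 h, and the 2 kinds of array do not overlap for any of the 24 genes.

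Plastid-encoded genes moved in both directions. Of the 69 with a kept probe set, 7 were called higher and 10 lower, where 0.829% and 0.572% of all probe sets were, while their median change was 0.00. With 7606596 against the same untreated arrays 17 were called higher and 3 lower, where 1.14% and 0.402% of all probe sets were. The genes called higher with 5929745 (rps14, petD, rpoB, atpH, psbB, ycf4 and petA) were each called higher there too. Both comparisons share the untreated arrays, and genes picked as low on them lean the same way in both, so this overlap is not separate evidence. With 5929745, 7 of 15 ribosomal protein genes were lower and 1 higher, with 12 negative changes and a median of -0.52. Photosystem II genes had 1 higher and 2 lower of 15, and cytochrome b6f genes 2 higher and 1 lower of 6. Of 7 genes for photosystem I and its assembly 1 was higher, as was 1 of 6 ATP synthase genes (all 6 changes positive) and 1 of 4 RNA polymerase genes. None of the 10 NDH complex genes was called by limma (median -0.23, range -0.35 to 0.87). The plastid NDH list held 4 genes with an unadjusted p under 0.05, which 2424 of all 15922 probe sets had. The number of plastid genes called was 15, 13, 7 and 8 without 5929745 replicates 1 and 2 and untreated replicates 1 and 2 in turn, and that of ribosomal protein genes 5, 6, 2 and 3. With no variance trend in the fit 3 plastid genes were called, 1 higher and 2 lower, and 0 ribosomal protein genes. With no filter on weak signals 5 ribosomal protein genes were lower and 0 higher, so rps14 was not called.

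The plastid ribosomal protein genes that fell most were rps15, rps18 and rpl20. The small-subunit gene rps15 had signals of 1159 and 1169 with 5929745 and 2222 and 2220 in untreated seedlings (-0.92 ± 0.16, limma, adjusted p = 0.00673). rps18, also of the small subunit, had 1929 and 2530 against 4062 and 4311 (-0.92 ± 0.14, adjusted p = 0.00256). The large-subunit gene rpl20 had 1253 and 1276 against 2888 and 1999 (-0.92 ± 0.16, adjusted p = 0.00813), with the untreated arrays apart from each other. rps3 had 4939 and 5180 against 8171 and 7345 (-0.61 ± 0.11, adjusted p = 0.00752). rpl32, rps19 and rpl14, named after their values were seen, changed by -0.83 ± 0.16, -0.52 ± 0.11 and -0.52 ± 0.11, with adjusted p of 0.0155, 0.0266 and 0.0272. The exception rps14, a weaker signal named after its values were seen, rose, with 292 and 420 against 140 and 80.4 (1.58 ± 0.29, adjusted p = 0.00958). The call of rps18 held without any array. Those of rps3 and rpl20 ended without untreated replicate 1 (adjusted p = 0.150 and 0.195), that of rps15 without either untreated array (up to 0.0838), and that of rps14 without 5929745 replicate 2 or untreated replicate 2 (up to 0.117). Those of rpl32 and rps19 ended without 5929745 replicate 1 or either untreated array (up to 0.165 and 0.265), and that of rpl14 without any of the 4 arrays (up to 0.313).

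Thylakoid genes were called in both directions. petL, a small subunit of the cytochrome b6f complex, had signals of 3073 and 3639 with 5929745 and 6770 and 6636 in untreated seedlings (-1.0 ± 0.15, limma, adjusted p = 0.00169). psbZ, a small photosystem II subunit, had 6081 and 5548 against 12240 and 10414 (-0.96 ± 0.12, adjusted p = 0.000866). psbL, another small photosystem II subunit, had 2524 and 2881 against 5590 and 4891 (-0.95 ± 0.17, adjusted p = 0.00673). In the other direction psbB, the CP47 core antenna of photosystem II, had 4058 and 3893 against 2181 and 2209 (0.85 ± 0.12, adjusted p = 0.00101). petD, subunit IV of the cytochrome b6f complex, had 320 and 261 against 167 and 133 (0.89 ± 0.19, adjusted p = 0.0297). petA, cytochrome f, was named after its values were seen and had 9660 and 11614 against 7985 and 6662 (0.54 ± 0.12, adjusted p = 0.0334). The treated and untreated arrays did not overlap for any of these 6 genes. The calls of petL, psbZ and psbB held without any array. That of psbL ended without untreated replicate 1 (adjusted p = 0.123), that of petD without any of the 4 (up to 0.211) and that of petA without 5929745 replicate 2 or either untreated array (up to 0.262).

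The other plastid genes that rose were atpH, ycf4 and rpoB. atpH, the ring subunit c of the ATP synthase, had signals of 10879 and 13869 with 5929745 and 7211 and 6366 in untreated seedlings (0.86 ± 0.13, limma, adjusted p = 0.00265). ycf4, an assembly factor of photosystem I, had 7999 and 7414 against 4975 and 4239 (0.74 ± 0.12, adjusted p = 0.00274). rpoB, the beta subunit of the plastid RNA polymerase, had 559 and 586 against 310 and 295 (0.88 ± 0.17, adjusted p = 0.0121). All 3 lay above the untreated arrays and below their 0 h means of 15998, 13175 and 1028. The call of atpH held without any array, that of ycf4 ended without untreated replicate 2 (adjusted p = 0.0594), and that of rpoB without 5929745 replicate 2 or either untreated array (up to 0.104).

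**Figure D3:**
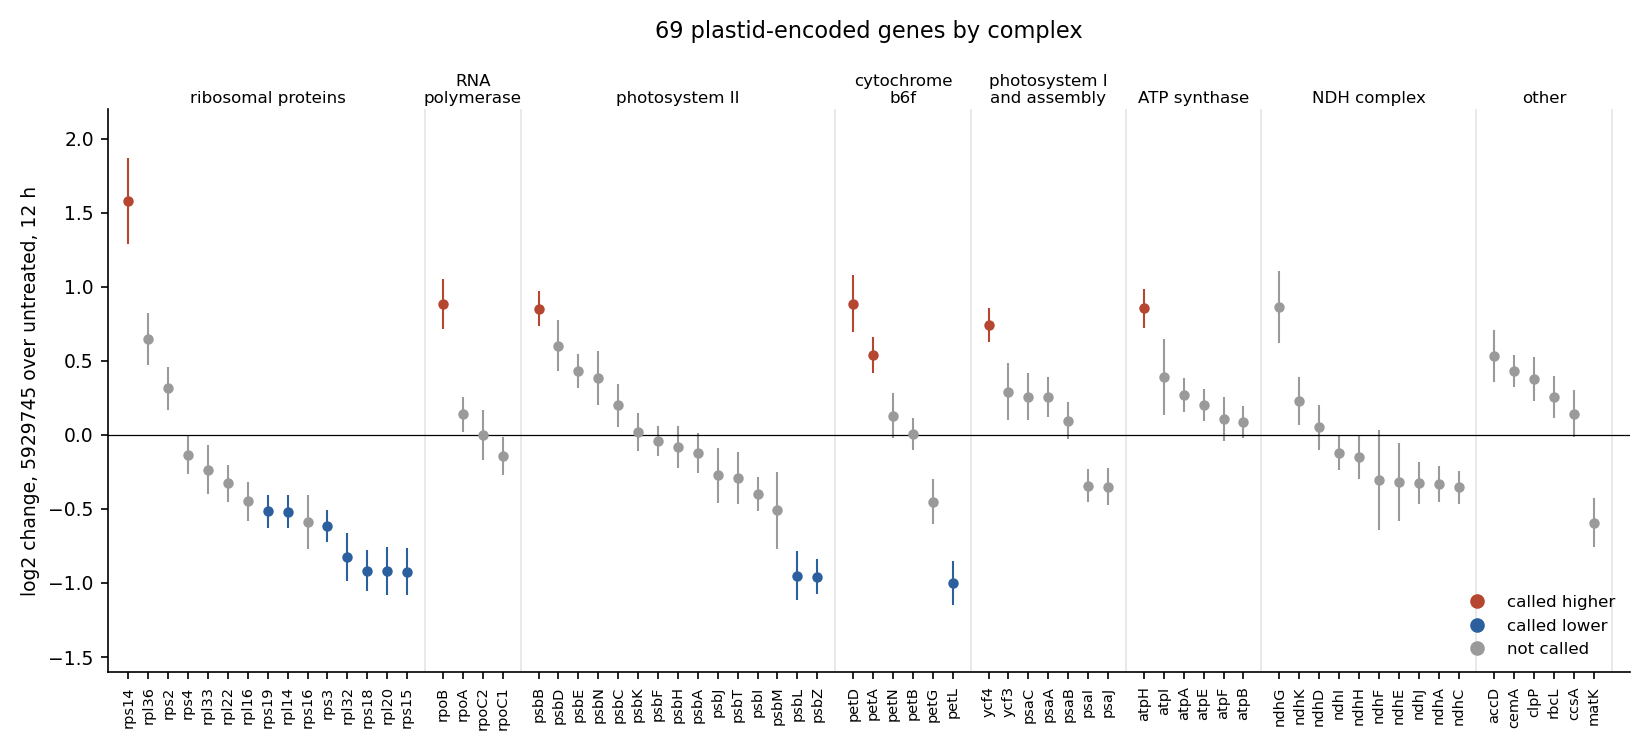
Log2 change with 5929745 over untreated seedlings at 12 h (y axis) of the 69 measured plastid-encoded genes, grouped by complex, with bars of 1 standard error of the fit. The ribosomal protein genes hold 7 blue points (called lower) and 1 red (called higher, rps14), while the 6 ATP synthase genes all lie above 0.

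Neighbouring plastid genes shared a direction in some stretches and not in others, as the gene order of the TAIR10.1 annotation shows. The order used holds protein-coding genes only and does not give strands, so neighbours in it need not be adjacent or transcribed together. These stretches were picked after their values were seen. In the order petL, petG, psaJ, rpl33, rps18, rpl20 all 6 changes were negative, with 3 called lower. In the order rpl14, rpl16, rps3, rpl22, rps19 all 5 were negative, from -0.33 for rpl22 to -0.61 for rps3, with 3 called lower. In the order ycf4, cemA, petA all 3 were positive, from 0.43 for cemA to 0.54 for petA and 0.74 for ycf4, with 2 called higher. Against this, psbZ (-0.96) and rps14 (1.58) are next to each other in this order and moved in opposite directions. Between psbB and petD, both called higher, the genes psbT, psbN, psbH and petB had changes of -0.29, 0.38, -0.08 and 0.01.

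The span of the gene went with the number of genes called lower, and less with the number called higher. Spans were taken from the TAIR10.1 annotation as the length of the whole gene. Among 8532 nuclear genes the genes called lower had a median span of 1567 bp and those called higher 2436 bp, against 2327 bp for all. Spearman's rho of the change with span was 0.14 across these genes, which share the same 4 arrays. In the shortest of 5 classes of like size (78 to 1553 bp, 1707 genes) 9 were called higher and 19 lower, and the median change was -0.08. In the longest class (3507 to 26499 bp, 1707 genes) 8 were called higher and 1 lower, and the median change was 0.01. The 3 classes between, from short to long, held 16, 10 and 14 genes called higher and 14, 3 and 4 called lower. The same rho was 0.00 for 5929745 against untreated seedlings at 3 h, whose spike signals differ too. It was 0.09 for 7606596 against untreated seedlings at 12 h and 0.07 for 5929745 against 7606596, where the spike signals overlap. Among the 69 plastid genes rho was 0.33, close to 0.32 for 5929745 at 3 h and 0.31 for 7606596 at 12 h, each against untreated seedlings of its time. With 5929745 at 12 h the plastid genes called lower had a median span of 273 bp against 963 bp for those called higher. Of the 35 plastid genes of at most 555 bp 3 were higher and 9 lower, and of the 34 longer ones 4 were higher and 1 lower. The part of gene length, and of the spike signals that differ between the same arrays, was not tested.

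**Figure D4:**
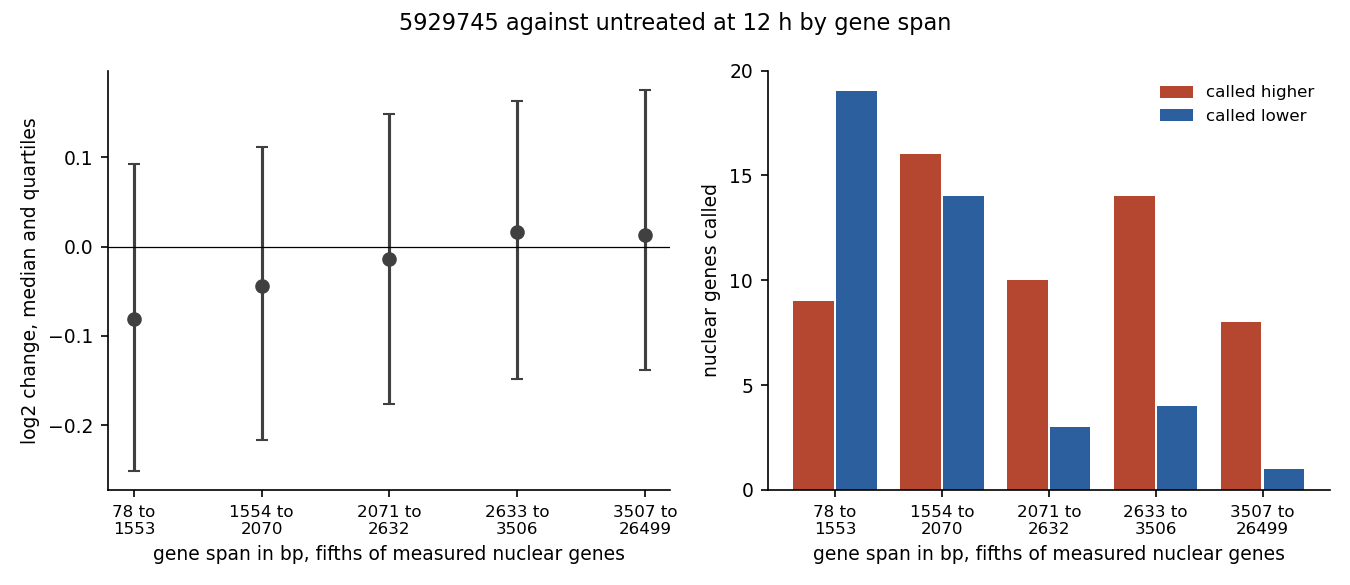
Nuclear genes in 5 classes of gene span in bp (x axis). The left panel gives the median log2 change with 5929745 over untreated seedlings at 12 h with bars for the quartiles, and the right panel the number of genes called higher and lower, with 9 and 19 in the shortest class and 8 and 1 in the longest.

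The listed nuclear genes of the green pathways held no call. As 1.4% of all probe sets were called, lists this small can be without one. None of the 8 measured of 26 listed chlorophyll synthesis genes was called by limma. An unadjusted p under 0.05, which 2424 of all 15922 probe sets had, was found for 2 of them: AT1G74470, geranylgeranyl reductase (0.27 ± 0.09, adjusted p = 0.151), and HEME2, a uroporphyrinogen decarboxylase (-0.28 ± 0.12, adjusted p = 0.275). The median of these 8 genes was 0.00. CHLM, the methyltransferase of the magnesium branch, had 7892 and 9490 with 5929745 against 7069 and 7736 in untreated seedlings (0.23 ± 0.12, adjusted p = 0.400). Measured were 3 of 18 listed light-harvesting genes, 5 of 28 nuclear photosystem and electron transport genes and 3 of 19 Calvin cycle genes. None was called, and 0 of these 11 had an unadjusted p under 0.05. Their list medians were 0.04, -0.02 and 0.02.

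Stress and hormone lists also held few calls, where 1.4% of all probe sets were called and 2424 of 15922 had an unadjusted p under 0.05 in limma. Lists this small can be without a call. Of 5 detoxification genes 0 were called, with 1 at an unadjusted p under 0.05 (GSTU22, a glutathione transferase, 0.68 ± 0.24, limma, adjusted p = 0.185). The same held for 5 heat shock genes, with 1 at an unadjusted p under 0.05 (AT2G29500, a small heat shock protein, 0.60 ± 0.24, adjusted p = 0.228). Of 5 genes of the reactive oxygen and retrograde response 0 were called and 2 had an unadjusted p under 0.05: NDB2, an alternative NADH dehydrogenase (0.55 ± 0.18, adjusted p = 0.150), and AT1G19020 (0.34 ± 0.15, adjusted p = 0.284). Of 4 abscisic acid, drought and cold genes 0 were called, and COR47, a dehydrin, had 4950 and 5398 against 3707 and 3803 (0.46 ± 0.12, adjusted p = 0.0676). Many listed genes had no single-gene probe set, and 6 of the 34 lists, such as jasmonate and cell cycle, had no measured member besides the flower markers.

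Late embryogenesis abundant (LEA) genes act in drying seeds. The 3 members named here were chosen after their values were seen. None of 9 measured members was called for 5929745 against untreated seedlings at 12 h (limma, median -0.24, 2 with an unadjusted p under 0.05). Of all probe sets 1.4% were called, and 2424 of 15922 had an unadjusted p under 0.05. AT3G02480 had 27.2 and 71.8 with 5929745, 466 and 311 with 7606596, and 65.8 and 48.4 in untreated seedlings. AT3G17520 had 27.7 and 56.8 with 5929745, 391 and 242 with 7606596, and 79.4 and 44.7 in untreated seedlings. The difference between 5929745 and 7606596, given as a size only, was -2.69 ± 0.28 for AT3G02480 and -2.52 ± 0.31 for AT3G17520. Both genes are near the filter on weak signals with 5929745 and in untreated seedlings, as are most of the 9, so members may have been kept through the arrays where they are high, and their number of calls is not given. LEA18, above the filter on all 12 h arrays, had 154 and 547 with 5929745, 1174 and 817 with 7606596, and 375 and 428 in untreated seedlings. Its difference between the compounds was -1.69 ± 0.35 (limma, adjusted p = 0.0234). The 2 arrays with 5929745 lay apart on this list: the summed signal of its 11 probe sets was 500 and 1336 with 5929745, against 920 and 1058 in untreated seedlings.

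At 12 h and the same dose, 55 probe sets were higher (0.345% of those tested) and 80 lower (0.502%) with 5929745 than with 7606596, 0.848% in all. The number of calls was 28 without 7606596 replicate 1 and 76 without 5929745 replicate 1. AT1G29090 separated the compounds most clearly among the named genes, with 1016 and 933 with 5929745 against a mean of 196 with 7606596, a difference of 2.23 ± 0.19 (limma, adjusted p = 1.66e-06). Part of this is its fall with 7606596, -0.91 against untreated seedlings of 12 h (limma, adjusted p = 0.0158). AT5G62280 differed by 1.33 ± 0.13 (adjusted p = 1.19e-05), EXPA8 by 1.36 ± 0.18 (adjusted p = 0.000511) and AT5G11420 by 0.97 ± 0.12 (adjusted p = 0.000388). BZIP61 differed by 0.84 ± 0.17 (adjusted p = 0.0173), AT5G08390 by 0.69 ± 0.15 (adjusted p = 0.0353), AT3G44970 by -0.89 ± 0.15 (adjusted p = 0.00418), rps18 by -0.64 ± 0.14 (adjusted p = 0.0338) and AT5G26280 by -0.51 ± 0.11 (adjusted p = 0.0338). The first 4 differences held without any of the 4 arrays. The other 5 were lost without at least 1 of them, with adjusted p of up to 0.0546 for AT3G44970, 0.264 for AT5G26280, 0.330 for AT5G08390, 0.410 for BZIP61 and 0.607 for rps18. Of the 132 probe sets higher with 5929745 than in untreated seedlings, 19 were also called higher than with 7606596 and 2 lower. Of the 91 lower ones 9 were also called lower and 0 higher. Both comparisons use the same 2 arrays of 5929745, so probe sets picked as high or low on them lean the same way in both.

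For other named genes no difference between the compounds was called, and the intervals show what the arrays allow. EXO differed by 0.09 with a 95% interval of -0.26 to 0.44, AT5G25560 by 0.07 (-0.18 to 0.33), atpH by 0.02 (-0.26 to 0.30), AT2G21530 by 0.04 (-0.31 to 0.39) and ARLA1C by -0.13 (-0.68 to 0.43). These intervals hold 0, and those of some other uncalled genes do not. AT2G36220 differed by -0.75 (-1.15 to -0.34), psbL by -0.58 (-0.92 to -0.23) and psbB by -0.31 (-0.56 to -0.07). In the other direction EXLB1 differed by 0.77 (0.32 to 1.23) and SRC2 by 0.28 (0.05 to 0.51). The intervals are not adjusted for the number of probe sets. Against the same untreated arrays, which both comparisons share, 1.54% of probe sets were called with 7606596 (1.14% higher and 0.402% lower). EXO changed by 0.81 with 7606596, atpH by 0.84, and ARLA1C by -1.26 (limma, adjusted p = 0.0158, 0.00174 and 0.0179). Among the plastid genes 3 of 69 differed between the compounds, all lower with 5929745: rps18, psbC, the CP43 protein of photosystem II (-0.66 ± 0.14, adjusted p = 0.0332), and psbI, a small photosystem II subunit (-0.49 ± 0.11, adjusted p = 0.0423). psbC and psbI fall outside the rule for named genes and were chosen after their values were seen.

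The effect of 5929745 differed between 12 h and 3 h for 18 probe sets, 6 higher (0.0377% of those tested) and 12 lower (0.0754%) at 12 h, 0.113% in all (limma interaction). AT5G11420 had 2956 and 2412 with 5929745 at 3 h against 3418 and 3736 in untreated seedlings, and its effect was 1.40 ± 0.18 higher at 12 h (adjusted p = 0.00343). AT1G29090 had 749 and 496 at 3 h against 563 and 795 in untreated seedlings, a difference of -0.13, and its effect was 1.45 ± 0.26 higher at 12 h (adjusted p = 0.0335). For AT5G62280 the effect was 1.07 ± 0.18 higher at 12 h (adjusted p = 0.0226), for EXPA8 1.49 ± 0.26 (adjusted p = 0.0259), for CRR41 -1.19 ± 0.22 (adjusted p = 0.0335) and for AT2G44820 -1.29 ± 0.25 (adjusted p = 0.0472). The plastid gene ndhJ, a subunit of the NDH complex outside the rule for named genes, was called higher at 3 h, with 3860 and 3084 against 1649 and 1375 (1.19, adjusted p = 0.000215). At 12 h it had 2182 and 2088 against 2846 and 2519 (-0.32, adjusted p = 0.279), and the difference of the effects was -1.51 ± 0.20 (adjusted p = 0.00343). The differences of AT5G11420 and ndhJ were called without any of the 8 arrays, while the other 5 were lost without at least 5 of them, with adjusted p of up to 0.243. Of the 132 probe sets higher at 12 h, 12 were also called higher at 3 h, where 0.773% of all probe sets were, and of the 91 lower ones 9 were also called lower, where 0.377% were (1.15% in all).

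**Figure D5:**
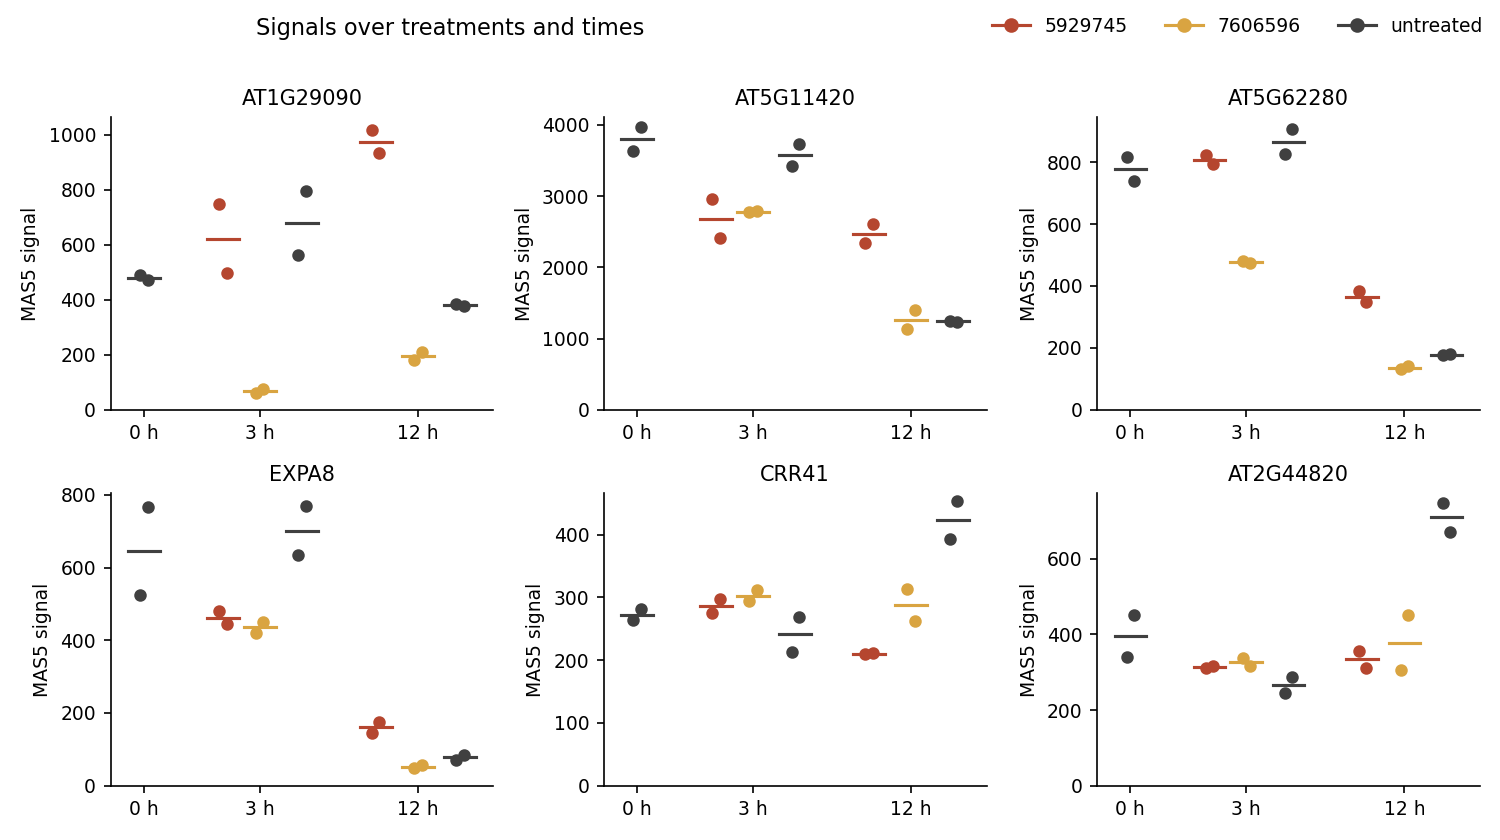
MAS5 signals (y axis, starting at 0) of 6 genes whose 5929745 effect differed between 3 h and 12 h, with a point for each array and a line at the mean of 2 arrays. Within each time the treatments stand in the order 5929745, 7606596, untreated. In untreated seedlings AT5G11420, AT5G62280 and EXPA8 are lower at 12 h than at 0 h, and CRR41 and AT2G44820 are higher.

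Signals also differed between the times in untreated seedlings, where 35.1% of probe sets were called between 12 h and 0 h, 19.9% higher and 15.2% lower. With 5929745 at 12 h, 29.5% of all probe sets were called against 0 h (17.1% higher and 12.5% lower). The r2 poly-A spikes averaged 6.71 and 6.66 (log2 signal) on the untreated arrays of 12 h and 5.03 and 4.99 at 0 h. With 5929745 at 12 h they averaged 4.80 and 4.95, near the 0 h level. The part of this in these counts was not tested. Of the 132 probe sets higher than in untreated seedlings of 12 h, 28 were called higher than at 0 h, 31 lower and 73 in neither direction. Of the 91 lower ones 35 were called lower and 10 higher. Both comparisons share the 2 arrays of 5929745 at 12 h, so these overlaps are not separate evidence. AT5G62280 had a mean of 366 with 5929745 against 777 at 0 h (-1.05, limma, adjusted p = 3.85e-06). psbB had a mean of 3976 with 5929745 against 12005 at 0 h (-1.58, adjusted p = 6.85e-09). AT1G29090 was higher than at 0 h by 0.99 (adjusted p = 0.000413). Of the 69 plastid genes 46 were lower with 5929745 at 12 h than at 0 h and 0 higher, against 39 lower and 6 higher in untreated seedlings at 12 h.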

How the data were processed

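The arrays were Affymetrix ATH1 arrays, 14 in 7 groups of 2, and the deposited values are linear MAS5 signal intensities scaled by the authors to a common trimmed mean, per the labels and the values of the table. The MAS5 version is not given in the sources used here, image-level files were not used here, and precision is set by having 2 arrays a group. The 64 control probe sets were left out, and probe sets with a mean signal of at least 42.3 (the 30th percentile) were kept. limma 3.58.1 in R 4.3.3 was fitted to log2(signal + 16) over all 14 arrays with 7 group means and a variance trend. Two-sided p-values were Benjamini-Hochberg adjusted over all kept probe sets. Gene names came from the platform annotation, for probe sets naming 1 gene (8738 kept), and spans and gene order from RefSeq's TAIR10.1. Named genes are the 12 largest called rises and falls with a group mean of at least 358, the median, plus up to 4 members of each list with 2 or more calls. The members and lists were chosen with earlier results of these data known. Same-numbered arrays of the compared groups did not deviate together, so no block was used. Alternatives were the offset, filter, scaling, variance trend, the arrays fitted, a replicate block and leaving out each array. Scripts were tested on simulated data.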

Additional observations from a re-analysis of the deposited data

Results flagged for a closer look

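For 15 named genes the effect of 5929745 over untreated seedlings differed between 12 h and 3 h by the interaction term of the limma fit (adjusted p under 0.05), given here as the log2 effect at 12 h minus that at 3 h. It was positive for AT2G28780 (2.26), EXPA8 (1.49), AT1G29090 (1.45), AT5G11420 (1.40) and AT5G62280 (1.07). It was negative for AT2G46100 (-1.72), ndhJ (-1.51), AT2G30270 (-1.48), AT2G44820 (-1.29) and AT4G34950 (-1.28). It was also negative for CRR41 (-1.19), AT1G49975 (-1.19), NRPB6B (-1.17), AT4G18740 (-1.17) and AT5G19240 (-1.15). AT5G11420 and ndhJ were called whichever of the 8 arrays was left out, and the other 13 were not. AT2G28780 rests on weak signals, 88.8 and 56.4 with 5929745 against 2.84 and 8.86 in untreated seedlings at 12 h.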

How the results depend on the processing

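For 5929745 against untreated seedlings at 12 h, 223 probe sets were called. The count was 107 with no filter on weak signals, 42 with no variance trend, 66 with only the 4 arrays compared and 39 to 317 with an array left out. It stayed within 1.5 times with an offset of 1 (205) or 64 (225), a filter at the median (250) and quantile scaling (265). Same-numbered arrays of these groups had correlated deviations of 0.05, and the replicate block gave 223 calls. Between 12 h and 3 h, 18 effects differed, against 3 with no filter, 0 with no variance trend (limma, 1675 at an unadjusted p under 0.05), 2 to 75 with an array left out and 14 with the replicate block. Between 5929745 and 7606596, 135 were called, against 65 with no filter, 46 with no variance trend, 28 to 188 with an array left out and 131 with the replicate block. The numbers of that pair deviated in opposite directions (-0.20), and a crossed block, chosen after seeing the data, gave 154. Of the list members 20 were called, against 3 with no variance trend, 7 to 18 with an array left out and 22 with the replicate block. Over single genes and alternatives, 674 kept their side of the threshold, 256 lost the call and 0 changed sign. For 5929745 against untreated seedlings at 12 h, only quantile scaling could have reversed a called gene. Leaving out an array or using another offset could not, as its arrays do not overlap, and the other settings leave the change as it is. The cause of the shifts in these counts was not tested, apart from the number of arrays or probe sets that a setting uses.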
